A study of Mus musculus with 5 samples.

Results

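NEUROD2 binding was examined around 9 genes that mark upper-layer and callosal neurons of the cerebral cortex: Satb1, Cux1, Cux2, Pou3f1, Pou3f2, Pou3f3, Rorb, Lmo4 and Mdga1. The genes were taken by name, with earlier results of these data known, and all 9 were found among the 21938 protein-coding genes of the annotation. For each gene the window ran from 50 kb before to 50 kb after the transcript with the longest span, and every peak whose midpoint lay inside it was counted. The 9 windows held 225 of the 94616 peaks in the 3 peak lists, namely 120 with antibody ab1, 86 with ab2 and 19 with ab3.

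Chromatin came from the cerebral cortex of BALB/c mouse embryos at E14.5, with tissue of embryos from several mothers pooled for each experiment. The 3 NEUROD2 libraries were made with a mouse antibody (ab1) and with a pair of rabbit antibodies (ab2 and ab3), and 2 GFP libraries, 1 for each host species, served as controls in peak calling, so that ab2 and ab3 shared a control. The labels name no treatment or mutation, each antibody gave 1 library, and the data therefore hold no contrast between conditions and no replicate of any antibody. The peak lists carry no read depth, and the ab3 list was the shortest, with 7470 peaks against 51837 for ab1 and 35309 for ab2.

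NEUROD2 is a basic helix-loop-helix transcription factor of postmitotic excitatory neurons. It binds DNA as a dimer with an E protein at the E-box, whose letters are CANNTG. Upper-layer neurons are born late in cortical neurogenesis, and many of them send axons through the corpus callosum or to other cortical areas. The homeodomain proteins Cux1 and Cux2 are the classical upper-layer markers, the POU proteins Pou3f1, Pou3f2 and Pou3f3 act in the production and migration of these neurons, and Satb1 organizes chromatin. Rorb is a nuclear receptor of the neurons that receive thalamic input, Lmo4 is a LIM-only adaptor of transcription complexes, and Mdga1 is a membrane-anchored adhesion protein of upper-layer neurons.

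Peaks of different antibodies that shared at least 1 bp were merged into regions, and a region with peaks of at least 2 antibodies is called shared. The motif searched was the extended E-box, which reads CA, then G or T, then C or A, then TG and a final G or T, on either strand. Bases of 6 regions are shown because each was, in its locus, the region with the highest scores whose central 100 bases held this motif and no untranslated bases. Capitals mark the motif.
Cux1 36.3 kb upstream, chr5:136603537-136603636, mm10, plus strand: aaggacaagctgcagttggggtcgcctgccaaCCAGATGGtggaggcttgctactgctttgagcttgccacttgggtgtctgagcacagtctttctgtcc
Cux2 145 kb into the gene (intron 4), chr5:121905110-121905209, mm10, plus strand: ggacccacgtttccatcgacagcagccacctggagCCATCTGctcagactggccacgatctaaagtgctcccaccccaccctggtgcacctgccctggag
Mdga1 135 kb into the gene (intron 18), chr17:29834822-29834921, mm10, plus strand: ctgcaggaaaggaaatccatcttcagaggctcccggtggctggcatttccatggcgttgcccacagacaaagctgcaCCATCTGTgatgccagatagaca
Pou3f1 48.0 kb downstream of the TSS, chr4:124704779-124704878, mm10, plus strand: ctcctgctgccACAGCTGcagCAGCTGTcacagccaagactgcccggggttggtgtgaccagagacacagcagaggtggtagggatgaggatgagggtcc
Pou3f2 0.357 kb upstream, chr4:22488673-22488772, mm10, plus strand: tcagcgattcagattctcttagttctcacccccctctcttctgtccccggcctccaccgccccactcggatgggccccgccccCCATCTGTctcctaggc
Lmo4 63.2 kb downstream of the TSS, chr3:144141991-144142090, mm10, plus strand: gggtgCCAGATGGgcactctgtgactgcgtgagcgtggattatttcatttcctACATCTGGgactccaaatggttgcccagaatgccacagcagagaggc
The Pou3f1 and Lmo4 stretches each held 2 copies of the motif, and the other 4 stretches held 1. The Pou3f1 stretch came from a region 4.11 kb from the TSS of Fhl3.

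The regions with the highest scores of Cux1, Cux2, Mdga1, Rorb, Satb1 and Pou3f3 were not all covered by that choice, so a further 7 stretches were added after their scores were seen. Each is the stretch of 100 bases with the most copies of the motif inside its region, and capitals again mark the motif.
Cux2 31.1 kb upstream, chr5:122081083-122081182, mm10, plus strand: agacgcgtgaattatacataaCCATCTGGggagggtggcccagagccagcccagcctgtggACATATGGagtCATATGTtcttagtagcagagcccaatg
Cux2 81.9 kb into the gene (intron 2), chr5:121967172-121967271, mm10, plus strand: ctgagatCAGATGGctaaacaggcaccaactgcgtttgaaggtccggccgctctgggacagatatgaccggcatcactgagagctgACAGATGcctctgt
Cux1 79.9 kb into the gene (intron 1), chr5:136486556-136486655, mm10, plus strand: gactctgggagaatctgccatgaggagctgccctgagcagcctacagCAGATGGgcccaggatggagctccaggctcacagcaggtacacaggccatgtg
Mdga1 23.5 kb upstream, chr17:29993084-29993183, mm10, plus strand: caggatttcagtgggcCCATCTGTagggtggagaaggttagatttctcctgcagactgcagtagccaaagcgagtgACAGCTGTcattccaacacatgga
Rorb 106 kb into the gene (intron 1), chr19:19005478-19005577, mm10, plus strand: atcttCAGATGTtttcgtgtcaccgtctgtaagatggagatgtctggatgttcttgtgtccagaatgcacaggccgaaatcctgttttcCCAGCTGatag
Satb1 71.7 kb into the gene (intron 9), chr17:51760401-51760500, mm10, plus strand: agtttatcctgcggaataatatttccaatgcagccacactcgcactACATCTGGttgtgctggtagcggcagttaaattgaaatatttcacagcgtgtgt
Pou3f3 1.09 kb upstream, chr1:42694385-42694484, mm10, plus strand: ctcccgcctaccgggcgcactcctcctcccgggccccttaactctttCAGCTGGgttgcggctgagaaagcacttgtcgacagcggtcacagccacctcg
The Cux2 stretch 31.1 kb upstream held 3 copies, the Cux2 stretch of intron 2, the Rorb stretch and the Mdga1 stretch held 2 each, and the Cux1, Satb1 and Pou3f3 stretches held 1. The Rorb stretch, centred 114 bp from its region's midpoint, reached into the central 200 bp. The other 6 were centred 158 to 759 bp from the midpoint and lay outside it.

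The primers with which Cux1 was amplified from precipitated chromatin were placed on the genome, since they show which Cux1 region that assay read.
Cux1 forward primer, chr5:136565766-136565785, mm10, minus strand: GGTGACCGATAGCTTGCATC
Cux1 reverse primer, chr5:136565605-136565624, mm10, plus strand: AGTCTCCTTACAGTCCAGCG
They enclosed an interval of 181 bp in intron 1, from 1.48 to 1.66 kb after the TSS, with 62.4% GC and 0 E-boxes of any form. The interval lay inside the region at the Cux1 TSS, which scored 274.4 with ab1 and 183.2 with ab2 and had no ab3 peak. It was neither of the pair of strongest Cux1 regions described next.

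Every one of the 9 genes had shared NEUROD2 regions in its window, which 67.6% of all protein-coding genes also had. Of 120 merged regions, 81 were shared, or 67.5% (95% Wilson interval 58.7 to 75.2), against 59.9% of the 53833 merged regions of the genome. Regions with peaks of all 3 antibodies made up 18 of the 81, or 22.2% (14.54 to 32.4), against 22.2% of all shared regions. At least 1 such region was present at 6 of the 9 genes, where 26.7% of protein-coding genes had one. These intervals cover counting error only, and no test was made, since each antibody had 1 library. Without ab1 or without ab2 the shared regions were 18 of the 81, since most had peaks of that pair alone, and without ab3 they stayed at 81.

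The shared regions were unevenly spread among the genes. Cux2 had 21, Mdga1 19 and Cux1 15, which together made 55 of the 81 shared regions and 14 of the 18 regions with all 3 antibodies. Pou3f1 had 8 and Pou3f3 had 6, while Satb1, Pou3f2, Rorb and Lmo4 had 3 each. The remaining 39 regions had a peak of 1 antibody, 36 of them of ab1 with a median score of 77.1 and 3 of ab2, and no region in the 9 windows was found with ab3 alone.

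**Figure D1:**
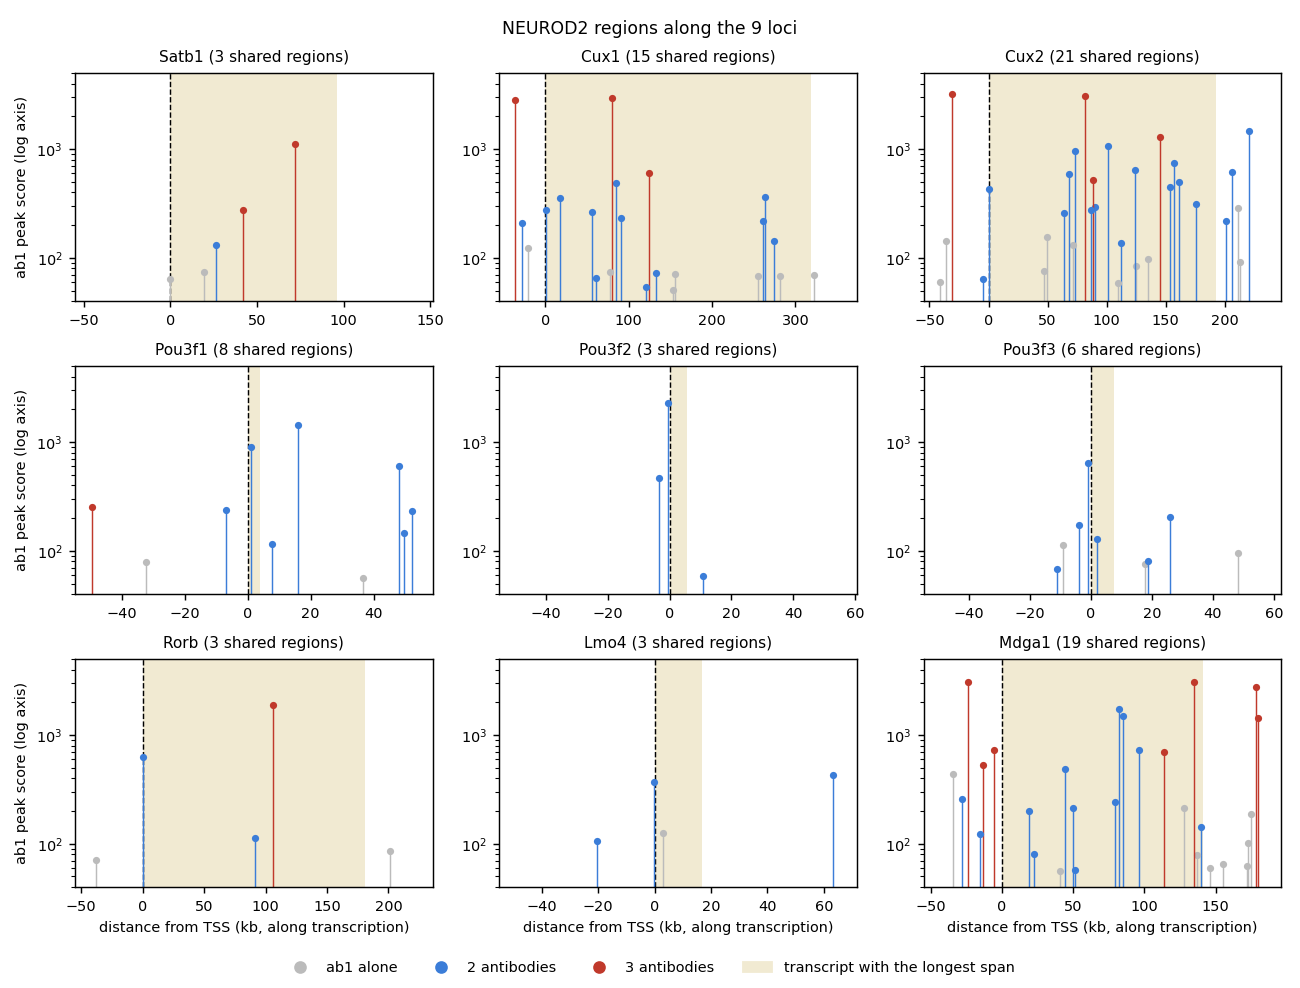
Each panel shows 1 locus, with the distance of a region's midpoint from the TSS in kb along the direction of transcription on the x axis and the region's highest ab1 peak score on a log y axis. Points are regions with an ab1 peak (grey, ab1 alone; blue, 2 antibodies; red, 3 antibodies), the shaded band is the transcript and the dashed line the TSS. The 4 red points at Cux2 and the 7 at Mdga1 lie away from the TSS, and Pou3f2, Pou3f3 and Lmo4 have none.

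Cux1 and Cux2, which encode homeodomain transcription factors with CUT repeats, carried the strongest regions of the set together with Mdga1. At Cux1 the region 36.3 kb upstream of the TSS scored 2855 with ab1, 1709 with ab2 and 357.8 with ab3. A score is 10 times the negative log10 of the p-value given by MACS, and it was not scaled between libraries, so each is also given as a percentile of its own antibody's list, here 98.2, 98.3 and 93.7. The region 79.9 kb into the gene, in intron 1, scored 2935, 1228 and 168.8, and the third Cux1 region with all 3 antibodies, 124 kb into the gene in intron 2, scored 601.0, 439.7 and 54.26. All 3 were thus high with ab1 and ab2, while the last was among the low ab3 peaks, at percentile 9.14.

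Cux2 had the highest ab1 score of the 9 windows as deposited. Its region 31.1 kb upstream scored 3209 with ab1, 2227 with ab2 and 398.6 with ab3, and the ab1 value stood at percentile 99.97. Its region of intron 2, 81.9 kb into the gene, scored 3100, 2604 and 595.3, the highest ab2 and ab3 scores of the set. The other Cux2 regions with all 3 antibodies lay 88.3 kb into the gene in intron 2 (525.2, 164.0 and 59.11) and 145 kb into it in intron 4 (1291, 589.0 and 122.3). A score of exactly 3100 was given to 661 ab1 peaks, 3 of them highest peaks of shared regions in these windows, so ab1 scores at this level carry no order. The lists do not tell whether peaks with this repeated value were weaker or stronger than the 69 ab1 peaks scored above it. The rank of 3209 above 3100, and its percentile, are therefore those of the deposited values only. The region 31.1 kb upstream was closer to the TSS of Myl2, a myosin light chain gene, at 20008 bp.

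A run of Cux2 regions lay in intron 2, where 10 shared regions were spread from 63.8 to 124 kb after the TSS. Their ab1 scores ran from 137.2 to 3100. The run did not reach the start of the gene, because the nearest shared region on the TSS side was the one at the TSS itself (431.8 with ab1 and 66.13 with ab2, without an ab3 peak).

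Mdga1, whose protein is anchored to the outer face of the neuronal membrane, had 7 regions with all 3 antibodies, the most of the 9 genes. The region 23.5 kb upstream scored 3100 with ab1, 2086 with ab2 and 309.7 with ab3, and the one 135 kb into the gene, in intron 18, scored 3100, 1934 and 468.6 and was centred 0.486 kb from the start of another annotated Mdga1 transcript. Beyond the end of the gene, the region 178 kb from the TSS scored 2784, 1303 and 191.3 and its neighbour at 180 kb scored 1430, 669.4 and 58.44. With ab1, the regions 82.3 kb (1739) and 85.2 kb (1513) into the gene, both without an ab3 peak, scored above the one at 180 kb. The other regions with all 3 antibodies, 5.81 and 13.3 kb upstream and 114 kb into the gene, had ab1 scores of 723.2, 528.1 and 702.9.

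The region at 23.5 kb upstream of Mdga1 was closer to the TSS of Zfand3, a zinc finger gene, at 11.4 kb. No shared region lay within 1 kb of the Mdga1 TSS used here. The widest region of all 9 windows, at 4493 bp, was in intron 4 of Mdga1 and centred 0.052 kb from the start of another annotated Mdga1 transcript. It scored 1739 with ab1 and 366.6 with ab2, without an ab3 peak.

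The POU genes, which are short genes of 1 exon and encode regulators that bind DNA through a POU domain, were bound at and around their starts. At Pou3f2 a region of 4067 bp covered the TSS and scored 2299 with ab1 and 582.5 with ab2, at percentiles 97.3 and 88.8. A second lay 3.27 kb upstream (470.7 and 470.1), and the third, 10.9 kb downstream of the TSS, was weak with ab1 (58.26) and scored 145.7 with ab2. At Pou3f1 a region of 3523 bp covered the TSS and scored 909.6 and 267.9, and a higher one, 16.0 kb after the TSS, scored 1436 and 323.8. At Pou3f3 the region over the TSS was 3029 bp wide and scored 647.8 and 225.0. None of these had an ab3 peak, and the sole POU region with all 3 antibodies was the one 49.5 kb upstream of Pou3f1 (251.6, 176.4 and 56.68), which lay 3.45 kb from the TSS of 3100002H09Rik.

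The Pou3f3 region over the TSS was centred 0.131 kb from the start of Pantr1, a noncoding transcript next to the gene, so the assay cannot assign it to either. Pou3f3 also had the lowest median ab1 percentile of the 9 loci, 49.5 over its 6 shared regions. The coding exons of the POU genes resemble each other, and regions of Pou3f1, Pou3f2 and Pou3f3 aligned over 468 to 483 bp with 82.3 to 86.3% identity, all of it coding. Among the 2699 pairs of shared regions from different loci, 1 other alignment of at least 100 bp was found, between the Cux1 region 27.8 kb upstream and the Cux2 region 31.1 kb upstream, over 125 bp with 73.6% identity and no coding base.

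Satb1, Rorb and Lmo4 had few regions. At Satb1, which encodes a protein that tethers chromatin loops, the highest region lay 71.7 kb into the gene in intron 9 and scored 1105 with ab1, 649.3 with ab2 and 91.91 with ab3, and it was 0.602 kb from the start of the noncoding gene C230085N15Rik. The region 41.9 kb into the gene, in intron 5, scored 274.3, 293.4 and 102.5, and the region 26.2 kb into it scored 130.3 and 51.67 with no ab3 peak. The Satb1 TSS itself carried a peak of ab1 alone, with a score of 63.85, at percentile 13.6. The Satb1 regions thus became stronger with ab1 from the start towards the end of the gene.

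At Rorb, the nuclear receptor gene, the region 106 kb into the gene, in intron 1, scored 1907, 952.1 and 239.8, at percentiles 96.1, 94.5 and 87.4. It was 4.30 kb from the start of a shorter annotated Rorb transcript, so its distance depends on the transcript used. A region of 2010 bp covered the Rorb TSS and scored 630.4 and 409.7, and a weaker one lay 91.6 kb into the gene (113.8 and 178.7).

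At Lmo4, the LIM-only gene, the TSS was covered by a region of 1597 bp with scores of 372.5 and 141.9. The others lay 63.2 kb downstream (426.3 and 93.04) and 20.5 kb upstream (106.8 and 81.69). No Lmo4 region had an ab3 peak, and the highest Lmo4 score with ab1 was the lowest such value of the 9 loci.

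**Figure D2:**
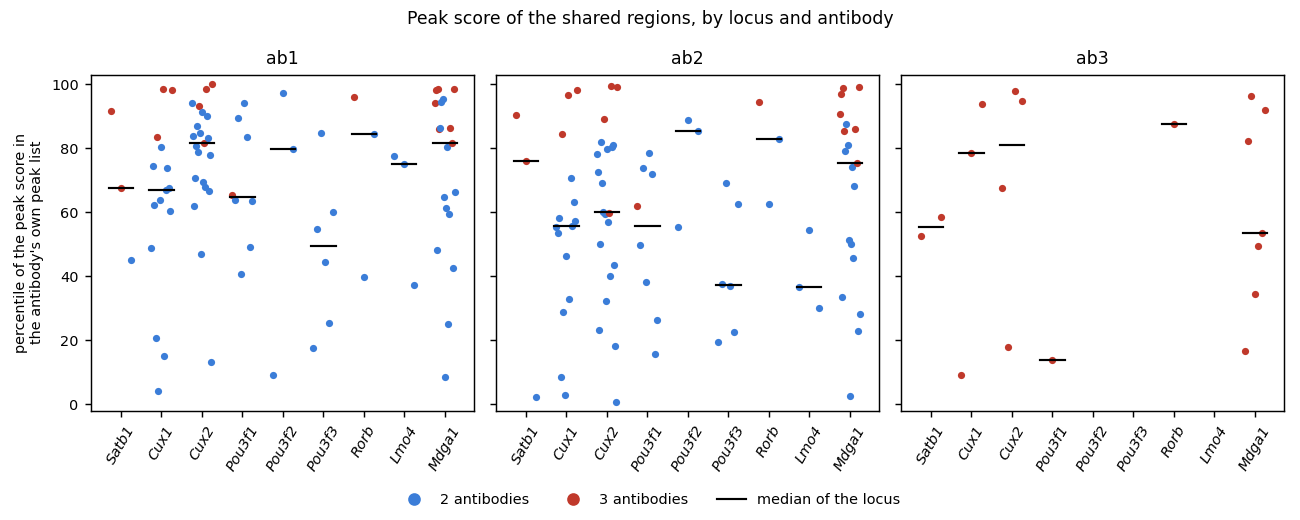
Each panel shows 1 antibody, with the 9 genes on the x axis and, on the y axis, the percentile of a shared region's highest peak score within all peaks of that antibody. Points are shared regions (blue, 2 antibodies; red, 3 antibodies) and black lines are the medians of each locus. With ab1 the regions run from percentile 4.21 to 99.97, red points lie from 65.5 upward, and the ab3 panel is empty for Pou3f2, Pou3f3 and Lmo4.

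Across the 81 shared regions the ab1 score had a median percentile of 74.3, against 68.1 over all shared regions of the genome. For ab2 the medians were 60.1 and 53.9, and for the 18 regions with an ab3 peak they were 62.9 and 50.7. The median was thus higher in the 9 loci than across the genome with each antibody, and the difference was not tested. With only the regions whose closest coding TSS was the member's, the ab1 median was 68.6. By locus it was below 68.1 at Satb1, Cux1, Pou3f1 and Pou3f3 and above it at the others. Where ab2 was left out, only regions with ab3 remained and the ab1 median became 93.5. The log10 scores of ab1 and ab2 correlated with a Pearson's r of 0.880 over the 81 regions (0.885 over the genome), those of ab1 and ab3 with 0.819 over 18 regions (0.683), and those of ab2 and ab3 with 0.891 over the same 18 (0.769). These points share chromatin and loci, and they are not independent replicates. The regions with all 3 antibodies were those high with the others as well, with a median ab1 percentile of 93.5 against 66.5 in the 63 regions with ab1 and ab2 peaks, and across the genome the same medians were 92.1 and 60.6.

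A shared region with its midpoint within 1 kb of the TSS was present at 5 of the 9 genes, Cux1, Cux2, Pou3f2, Rorb and Lmo4, against 20.8% of protein-coding genes. At Pou3f1 and Pou3f3 the midpoint fell 1.08 kb after and 1.09 kb before the TSS, although the region covered it. Counting any base within 1 kb, 8 regions of these 7 genes were at a start site. The 20.8% above is by midpoint, and the share of coding genes under this looser rule is not given, so the 7 genes have no background here. Of the 8 regions, 0 had peaks of all 3 antibodies, where 8.62% of the 4372 such regions at coding genes did. The count of 0 in 8 allows a share of up to 37.5%, taken as 3 counts of the 8. With the starts of any annotated transcript of any gene, 3 of 17 member regions with a midpoint within 1 kb had all 3 antibodies (17.6%, 6.19 to 41.0), against 12.2% across the genome, a count that differs from the first in both the start sites and the use of the midpoint. Without ab1 or without ab2, 0 of the 9 genes kept a shared region within 1 kb. The 8 regions were wide, with a median of 2882 bp against 1312 bp, and the narrowest was that of Lmo4.

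Most binding lay away from the starts. Of the 81 shared regions, 44 were more than 50 kb from the member's TSS, 23 were at 10 to 50 kb, 9 at 1 to 10 kb and 5 within 1 kb. The closest coding TSS of any gene was at a median of 41.9 kb, against 52.6 kb for all shared regions of the genome. Inside the genes lay 49 regions, of which 10 were in the first intron, 34 in a later intron and 5 in an exon, while 18 lay upstream and 14 downstream. Shares of these places over the genome are not given. None of the 18 regions with all 3 antibodies was within 1 kb of the start of the member's longest-span transcript, the nearest being 5.81 kb upstream of Mdga1. Over all annotated transcripts of the members 1 of the 18 was, the Mdga1 region of intron 18, and over those of any gene 3 of the 18 were (16.7%), against 10.9% of such regions across the genome. The transcripts of Cux1, Cux2 and Rorb spanned 319, 193 and 181 kb and that of Pou3f1 3.85 kb, and the part of gene length in these positions was not tested.

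The member was the closest coding gene, by TSS, for 56 of the 81 regions. The other 25 were closest to Pheta1 (10, 8 of them inside Cux2), Ccdc167 (4), Sh2b2 (3, all inside Cux1), Fhl3 and Zfand3 (2 each), and Myl2, Sh2b3, Sf3a3 and 3100002H09Rik (1 each). Of the 25, 13 were inside the member's own transcript, far from its start. Peak positions alone do not assign a region to a gene.

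Per 100 kb of window the 9 genes had a median of 3.58 shared regions, against 0.950 over all protein-coding genes. Mdga1 (7.89), Pou3f1 (7.70) and Cux2 (7.16) stood at percentiles 99.2, 99.1 and 98.7 of protein-coding genes, followed by Pou3f3 (5.59, percentile 96.6) and Cux1 (3.58, percentile 88.2). These counts include regions nearer to other genes. The member's TSS was the closest coding TSS for 13 of 19 regions at Mdga1, 4 of 8 at Pou3f1 and 9 of 21 at Cux2. Pou3f2 (2.84), Lmo4 (2.57), Satb1 (1.53) and Rorb (1.07) stood at percentiles 81.8, 77.5, 59.6 and 54.2. All 9 were above the median gene, while Satb1 and Rorb were close to it. The genes were chosen with earlier results of these data known, so these percentiles are a description and not independent support. With 10 kb on either side the medians were 8.09 and 0, since 46.4% of coding genes then had a shared region, and with 100 kb they were 2.89 and 1.13, with 7 of the 9 above the median gene. With each antibody's own peaks the median over the 9 windows was 5.49 regions per 100 kb for ab1, 3.82 for ab2 and 0.716 for ab3 (mean 3.34, SD 2.42, n = 3 antibodies), so the level depended on the antibody. The median of shared regions fell to 0.716 without ab1 or without ab2.

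**Figure D3:**
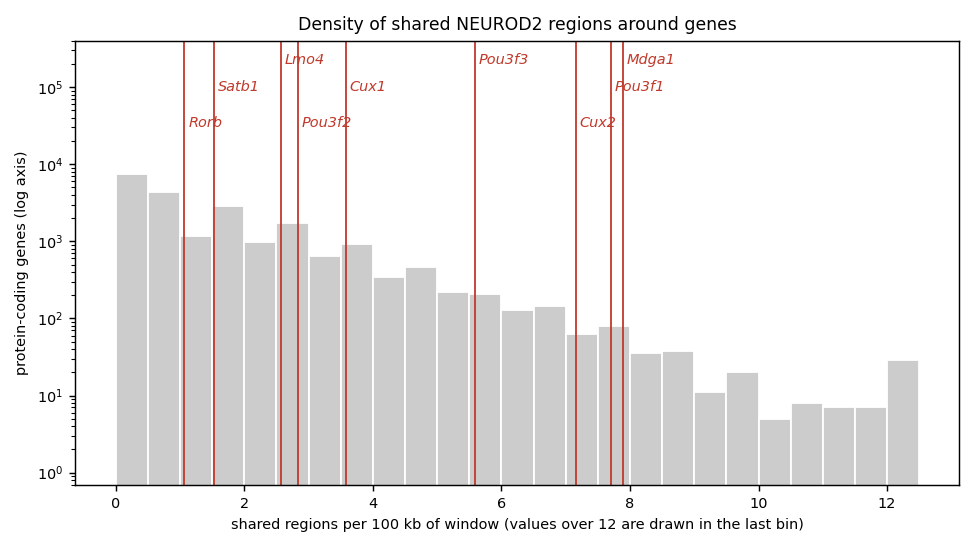
Grey bars count protein-coding genes on a log y axis by the number of shared regions per 100 kb of their window on the x axis, in steps of 0.5. Red lines mark the 9 genes, from Rorb at 1.07 to Mdga1 at 7.89, all to the right of the median gene at 0.950.

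Relatives of the members by sequence gave a mixed picture. Of Lmo1, Lmo2, Lmo3, Pou3f4, Rora and Mdga2, 5 of 6 had a shared region (67.6% of all coding genes had one), with a median of 1.39 per 100 kb, and 3 were above the median of protein-coding genes. Lmo1 and Lmo2 had 6 and 5 shared regions, more than Lmo4, while Pou3f4, the X-linked POU gene, had 0. Mdga2 had 4 shared regions in a window of 856 kb, or 0.467 per 100 kb, where Mdga1 had 7.89. Rora had 18 in 834 kb, 6 of them with all 3 antibodies, and Rorb had 3 in 281 kb.

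Other genes of upper-layer or callosal neurons, namely Lhx2, Cited2, Plxnd1, Inhba, Nectin3, Dkk3, Lpl, Limch1, Unc5d and Bhlhe22, had a median of 2.15 shared regions per 100 kb, and 9 of 10 had at least 1, again beside 67.6% of all coding genes. Limch1 had 19, Unc5d 13, and Lhx2, a LIM homeodomain gene, and Plxnd1, a semaphorin receptor, 6 each. Inhba had 0, and Cited2 and Nectin3 had 1 each. A shared region within 1 kb of the TSS was present at 6 of these 10 genes, against 20.8% of all coding genes. A region with all 3 antibodies was present at 6 of the 10 and at 4 of the 6 relatives, against 26.7% of all coding genes. The excess over that share was thus not particular to the 9 genes. The median density of these 10 genes was lower than that of the 9 genes, and the difference was not tested. All lists were chosen with earlier results of these data known.

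The extended E-box was present in the central 200 bp of 41 of the 81 shared regions, or 50.6% (95% Wilson interval 40.0 to 61.2), against 59.6% of all shared regions. In windows of 200 bp that start 1000 bp outside the left and right ends of the same regions the shares were 23.5% (15.6 to 33.8) and 25.9% (17.6 to 36.4), and both were 22.3% across the genome. The centres held the motif more often than their flanks, as they did across the genome. The intervals did not overlap, but this is not a test, since centres and flanks come from the same regions. Some flanks can also reach into a neighbouring region. The share of the 9 loci was below that of the genome, and the genome value lay inside its interval. It lay above the interval in 200 bp around the highest peak (48.1%, 37.6 to 58.9, against 60.2%) and in 400 bp around the midpoint (63.0%, 52.1 to 72.7, against 75.6%). In whole regions the share was 93.8% (86.4 to 97.3) against 90.3%, which lay inside the interval, and these are not of like length, since the median width was 1136 bp in the 9 loci and 865 bp across the genome.

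The share was lower near a start, as across the genome, though the intervals of the 9 loci overlapped and the difference was not tested. Within 1 kb of the start of any annotated transcript 5 of 17 regions held the motif (29.4%, 13.3 to 53.1), against 31.6% of such regions across the genome, and farther away 36 of 64 did (56.2%, 44.1 to 67.7), against 66.6%. Start-site regions made up 20.99% of the set and 19.9% of the genome's shared regions. The median GC content of the centres was 54.0% in the 9 loci and 51.0% across the genome, and 64.5% and 53.5% for member regions near and far from a start.

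**Figure D4:**
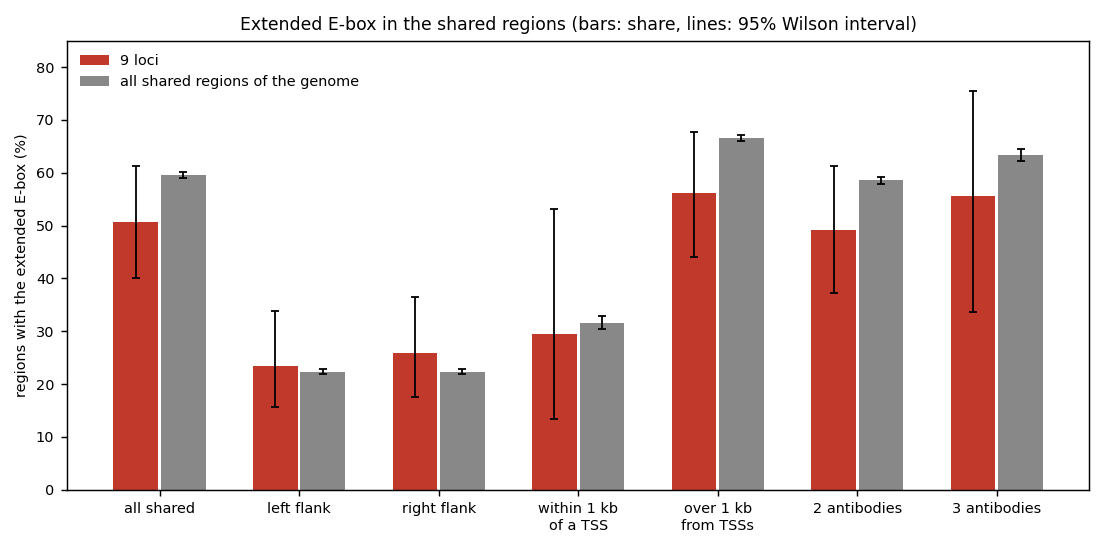
Bars give the percentage of shared regions with the extended E-box (y axis) for the 9 loci in red and all shared regions of the genome in grey, and lines are 95% Wilson intervals. From left to right they show the central 200 bp of all shared regions, the left and right flanks, and the central 200 bp of regions by distance to a TSS and by number of antibodies. In the 9 loci the share is 50.6% in the centres and 23.5 and 25.9% in the flanks.

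By gene the share was uneven. The motif was present centrally in 13 of 19 Mdga1 regions, 8 of 21 Cux2 regions, 7 of 15 Cux1 regions, 4 of 8 Pou3f1 regions and 3 of 3 Rorb regions. It was present in 2 of 3 regions at Pou3f2 and at Lmo4, in 2 of 6 at Pou3f3 and in 0 of 3 at Satb1. In the whole length of the regions, 76 of 81 held it (93.8%), and the 3 Satb1 regions held 2, 5 and 2 copies. The strongest Cux2 regions, 31.1 kb upstream and 81.9 kb into the gene, and the Cux1 region of intron 1 had 0 copies in their central 200 bp and 5, 5 and 3 in their whole length of 2259, 2374 and 2332 bp.

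The forms of the E-box differed in frequency. With both strands read, CAGATG was present in the centres of 38.3% of the shared regions (28.4 to 49.2), against 43.1% of the genome's, and CAGCTG in 23.5% (15.6 to 33.8), against 28.1%. CATATG was present in 4 regions, or 4.94% (1.94 to 12.0), against 11.7%, with the genome value inside the interval, and the 4 were at Cux1 and Cux2. Any E-box was present in 72.8% (62.3 to 81.3), against 83.7%, which lay above the interval. The octamer ATGCAAAT, which POU proteins bind, was present on either strand in 1 of the 81 centres and in 1.64% of all.

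The regions with the most copies of the extended E-box in their centres, at 3 or more, were 5 of the 81 (6.17%, against 5.09%). Pou3f1 had 1 with 4 copies, 48.0 kb after its TSS and 4.11 kb from the TSS of Fhl3, and another with 3 copies 6.99 kb upstream. The others were in intron 14 of Cux1, in exon 16 of Cux2 and 63.2 kb downstream of Lmo4, each with 3 copies. Their ab1 scores were 601.4, 235.8, 219.9, 310.5 and 426.3, and none of them had an ab3 peak.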

How the data were processed

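The members and the comparison lists were chosen with earlier results of these data known. Chromatin was measured in 3 NEUROD2 libraries. The authors mapped reads to mm10 with Bowtie, and ran MACS on every NEUROD2 library with GFP from the matching host species as background. Each deposited score is 10 times the negative log10 of the MACS p-value, not scaled between libraries, and the deposited lists start at 50.0. Reads, GFP and input signal were not used here, and the depth behind a score is unknown from the lists.

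Peak midpoints were placed in windows of GENCODE M21 transcripts, overlapping peaks (at least 1 bp) were merged, and regions with at least 2 antibodies were kept. Motifs were read from GRCm38 in the central 200 bp, and sequences were aligned with blastn 2.17.0 (word size 11, E cutoff 0.001, at least 100 bp). The reference is of another strain than BALB/c, so strain variants were not seen. Shares carry 95% Wilson intervals. No test was run: the samples are 1 library per antibody of 1 condition, which do not separate technical from biological spread. Merging, window and motif steps were first tested on simulated data. Analyses used Python 3.11.15, numpy 2.4.6, scipy 1.17.1, pysam 0.24.0 and matplotlib 3.10.9.

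Regions named are, in each locus, the highest with each antibody, the closest to the TSS and those with all 3 antibodies, and genes outside the set are named where they own the closest TSS or belong to a comparison list. One gene of the list of relatives is not reported here, and the values of that list leave it out. Some regions were chosen after their values were seen. These are other regions of Pou3f2, Rorb, Lmo4 and Satb1, the widest region of Mdga1 and the one 85.2 kb into that gene. They also include the run in intron 2 of Cux2, the aligned regions, regions with 3 or more motif copies, those with CATATG, and the 7 added stretches. Alternatives were each antibody left out, a score of at least 100, an overlap of 50%, other windows around genes and regions, other start sites and any E-box. Alternatives without the Cux1, Cux2 and Mdga1 loci and far from every start, and the alignment of regions, were added after seeing the data.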

Additional observations from a re-analysis of the deposited data

How the results depend on the processing

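The counts rest on ab1 and ab2. Leaving out each antibody in turn gave 18 to 81 shared regions, 85 to 120 merged regions, 0 to 5 genes with a shared region within 1 kb of the TSS, a median density of 0.716 to 3.58 per 100 kb, 50.6 to 61.1% with the extended E-box, and a median ab1 percentile of 74.3 to 93.5 (ab2 or ab3 left out). By locus the shared regions ranged from 2 to 3 at Satb1, 3 to 15 at Cux1, 4 to 21 at Cux2, 1 to 8 at Pou3f1, 0 to 3 at Pou3f2, 0 to 6 at Pou3f3, 1 to 3 at Rorb, 0 to 3 at Lmo4 and 7 to 19 at Mdga1. The share with all 3 antibodies has no value when an antibody is left out.

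Windows of 10 kb on either side raised the median density to 8.09 per 100 kb and left 3 shared regions at Pou3f1, 3 at Pou3f3 and 1 at Lmo4, and windows of 100 kb gave 6 at Lmo4. Regions of any antibody whose closest coding TSS was the member's numbered 73, and the shared ones were 4 at Pou3f1 and 9 at Cux2. A score of at least 100 left 5 shared regions at Pou3f1, 2 at Pou3f3 and 1 at Lmo4, with a median ab1 percentile of 83.6 and a median density of 1.89 per 100 kb (SD over the antibodies 2.42). The extended E-box share was 63.0% in 400 bp (75.6% over the genome), 93.8% in whole regions (90.3%) and 48.1% around the highest peak (60.2%), and any E-box gave 72.8%. Without the Cux1, Cux2 and Mdga1 loci, added after seeing the data, 26 shared regions were left, 15.4% with all 3 antibodies and 13 of 26 with the extended E-box. For the changes with windows and scores the cause was not tested beyond the number of regions each setting keeps. Of the 65 alternative values over all loci 51 stayed within the spread or interval, or within 1.5 times for counts, and of the 81 by locus 56 did. For density the spread was the SD of 2.42 over each antibody's own peaks, so a fall from 3.58 to 1.89 counted as within it. Every shared region had ab1 and ab2 peaks, so leaving out ab3 could not change their number. The tally therefore does not measure how stable the results are. No paired analysis was possible because there is no contrast between groups and no test. Peak lists give no depth, so a locus without an ab3 peak cannot be called unbound by ab3.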
